A study of Mus musculus with 6 samples.

Results

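The genes described here are 81 mouse zinc finger genes named Zfp with a number from 700 to 999. They were taken as the probe sets annotated to that gene symbol alone whose mean log2 signal over the 6 arrays was 4.29 or more, with the brightest probe set standing for each gene. The array annotation held 96 such genes on 103 probe sets; 15 genes lay below the signal limit and are not among the 81, and the tested genes of all kinds numbered 14064. The limit used the mean signal only, so the brightness of a gene is a description and not a finding. Just inside it were Zfp791 at 4.31, Zfp773 at 4.38 and Zfp772 at 4.41, and just outside were Zfp979 at 4.21, Zfp850 at 4.14 and Zfp947 at 3.92.

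Zfp genes encode proteins with C2H2 zinc fingers, small loops held by a zinc ion that read DNA a few bases at a time when strung in an array. The number in a Zfp name is an order of naming and carries no function. Many of these genes belong to the KRAB family, which lies in clusters of tandem duplicates in rodent genomes. A KRAB domain binds the corepressor Trim28 (KAP1), which brings the histone methyltransferase Setdb1 and heterochromatin protein 1, and many such proteins silence retroelements in the early embryo. A smaller number have other roles: Zfp711 is an X-linked promoter-binding factor, Zfp746 (PARIS) represses Ppargc1a, Zfp750 promotes epidermal differentiation and Zfp706 is a very small zinc finger protein.

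Each sample was the yolk sac of an individual mouse embryo at embryonic day 9.5, with its total RNA hybridised to a Mouse Gene 1.0 ST array. The 3 wild-type yolk sacs came from littermates of the mutants, and the 3 mutant yolk sacs are labelled Tnrc6a (GW182) mutant and, in the design text, GW182gt/gt. Tnrc6a encodes GW182, which links Argonaute and its microRNAs to decay of target mRNAs, and the comparison asks which mRNAs differ when it is disrupted. The labels of both groups add the term mixed without explaining it, and nothing states which litter an embryo came from or how the gt allele is built.

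The deposited log2 signals had medians of 5.19 to 5.22 on the 6 arrays, and with so few arrays the precision was limited. The standard error of a log2 difference had a median of 0.106, which makes a 95% interval of ± 0.25. Tnrc6a, the check of the labels, read 8.40, 7.62 and 8.29 in wild types 1 to 3, 7.81 in the library labelled mutant 1, and 5.33 and 5.20 in mutants 2 and 3. The first mutant library thus read like the wild types for Tnrc6a, and whether its label is right is not known. It is kept in all comparisons except where its removal is stated. Visceral endoderm markers such as Afp and Ttr, the defining markers of the tissue, had mean log2 signals of 11.58 to 11.84 on every array. Some but not all markers of endothelium and primitive erythroid cells had separate genotypes. Markers of endothelium, mesenchyme and trophoblast and decidua differed between arrays, and both are given beside the results they touch. In bulk tissue, fewer cells of a type and less RNA per cell cannot be told apart.

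The 81 genes were divided evenly between higher and lower in the mutants. Their median log2 difference, mutant minus wild type, was 0.011, beside 0.0080 over all 15428 tested probe sets and 0.029 over 195 lower-numbered Zfp genes. Of the 81 genes, 41 (50.6%) were higher in the mutants, against a background of 53.0%, and 73 (90.1%) differed by less than 0.25. No gene passed an adjusted p under 0.05 in limma with Benjamini-Hochberg adjustment, where 0% of all tested probe sets passed and the lowest adjusted p was 0.999. At an unadjusted limma p under 0.05 there were 3 genes (3.70%), against a background of 3.51%; 1 was higher, against 2.30%, and 2 were lower, against 1.21%. The arrays of the genotypes did not overlap for 7 genes (8.64%), 5 higher and 2 lower in the mutants, against 8.52% of all tested probe sets (5.21% higher and 3.31% lower). The differences of 3 genes (3.70%), Zfp983, Zfp943 and Zfp975, exceeded 0.5 in either direction, against 0.804% of all tested probe sets. That share lay above the background but rested on 3 genes, and the genotypes overlapped for Zfp943 and Zfp975. The shares at p under 0.05 and with separate genotypes are near the background, and so are no result about the zinc finger genes. Without the library labelled mutant 1, 49 of the 81 genes were higher, against 54.0% of all tested probe sets. In that fit 7 reached an unadjusted p under 0.05, where 4.36% of all tested probe sets did. Without mutant 3 the counts were 37 and 9, against 51.6% and 8.13% of all tested probe sets. Of 7 endothelial markers, 4 (Kdr, Tek, Tie1 and Flt1) were higher in every library labelled mutant than in any wild type. Of the 7 primitive erythroid markers on the array, 4 (Hbb-y, Hba-x, Alas2 and Epor) were lower in every such library. Over all tested probe sets these shares were 5.21% and 3.31%. The genotypes overlapped for the endothelial markers Cdh5, Pecam1 and Emcn and for the erythroid markers Hbb-bh1, Gata1 and Klf1. Kdr read 8.58 to 8.97 in the wild types and 9.03 to 9.36 in the libraries labelled mutant, and Alas2 10.34 to 10.45 and 9.34 to 10.14. The mean log2 signal of the erythroid list was lowest in mutant 2, at 9.84, against 10.43 to 10.58 elsewhere. Their part in the differences of single zinc finger genes was not tested.

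**Figure D1:**
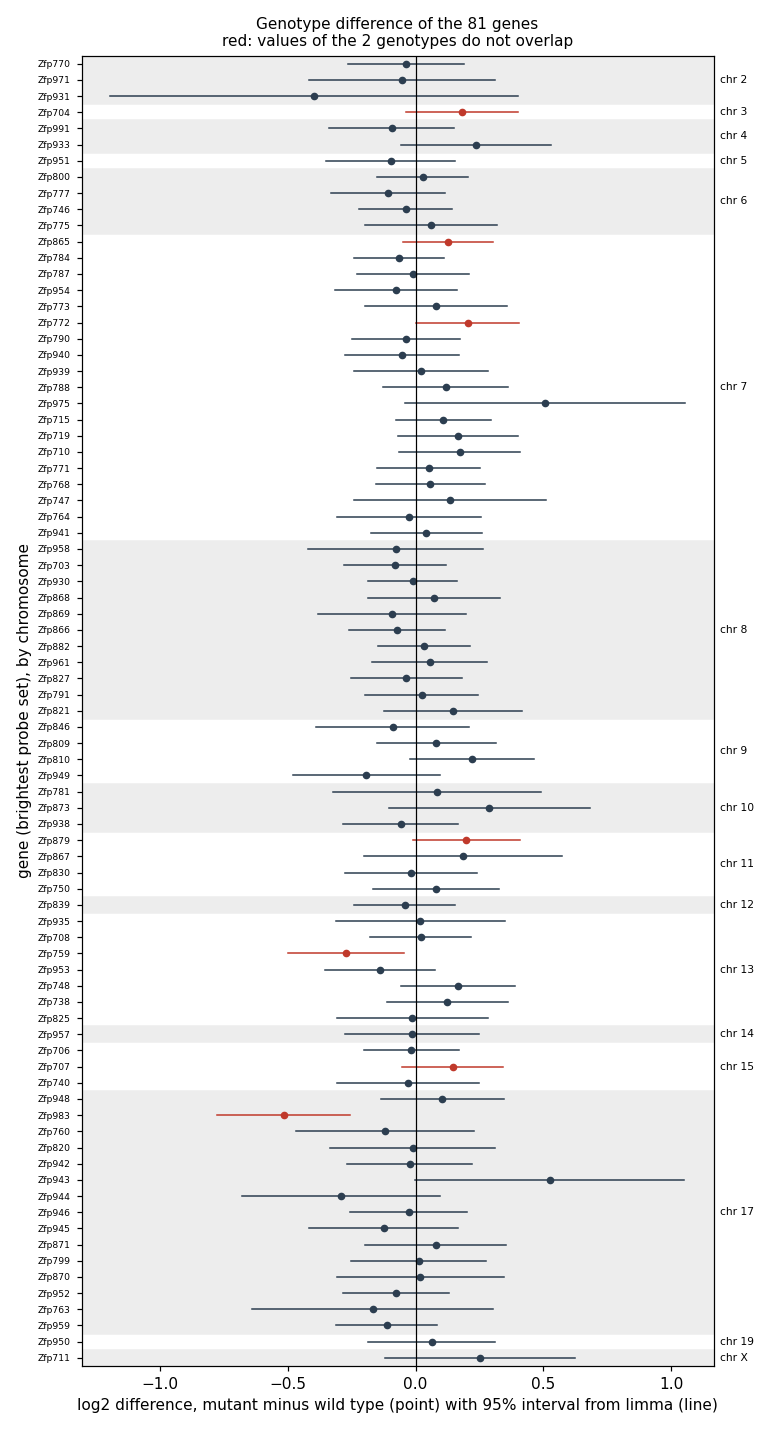
Log2 difference between mutant and wild type for each of the 81 genes (points) with the 95% interval from limma (lines), grouped by chromosome. The 7 genes in red have genotypes whose 3 arrays do not overlap. The points run from −0.52 to 0.52, and 73 lie within 0.25 of 0.

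Zfp983, on chromosome 17, gave the lowest unadjusted p of the 81 genes. It read 4.58, 4.70 and 4.90 in wild types 1 to 3, and 4.28, 4.07 and 4.29 in the libraries labelled mutant 1 to 3. Every wild-type array lay above every mutant array. The means were 4.73 ± 0.16 (SD, n = 3) and 4.21 ± 0.12 (SD, n = 3), a log2 difference of −0.52 (SE 0.11, limma unadjusted p = 0.00199, adjusted p = 0.999), which is 1.43-fold lower. Without the library labelled mutant 1 the difference was −0.55. An exact permutation test of 3 against 3 arrays gave p = 0.1, the smallest it can give. The gene lay close above the signal limit, at a mean of 4.47, and 2 further probe sets list it together with other genes.

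Zfp759, in the chromosome 13 cluster described below, was the other gene lower in every mutant array. It read 4.88, 4.93 and 4.65 in the wild types and 4.58, 4.49 and 4.58 in the libraries labelled mutant, and wild type 3 lay close above the mutant libraries. The log2 difference was −0.27 (SE 0.098, limma unadjusted p = 0.0253, adjusted p = 0.999). Its unadjusted p was 0.0822 without wild type 1, 0.0866 without wild type 2 and 0.0755 without mutant 2.

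Zfp772, on chromosome 7, was the gene higher in the mutants at an unadjusted p under 0.05. It read 4.32, 4.20 and 4.40 in the wild types against 4.53, 4.45 and 4.56 in the libraries labelled mutant. All 3 mutant arrays lay above the wild types, by a log2 difference of 0.20 (SE 0.086, limma unadjusted p = 0.0474, adjusted p = 0.999). Its unadjusted p missed 0.05 without wild type 1, wild type 2 or any 1 of the mutant libraries (0.0575 to 0.155), and it was the third dimmest gene of the 81. Brighter probe sets that list Zfp772 together with other genes did not show this separation. They differed by 0.034 and 0.071 with overlapping genotypes, and the library labelled mutant 1 was the lowest array on both. Zfp879, Zfp704, Zfp707 and Zfp865 were the other genes with every mutant array higher, at log2 differences of 0.20, 0.18, 0.15 and 0.13 and limma unadjusted p of 0.0611, 0.0894, 0.127 and 0.134.

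Zfp738 was measured by 3 probe sets, which did not read alike. The brightest read 5.32, 5.41 and 5.25 in the wild types and 5.62, 5.34 and 5.38 in the libraries labelled mutant, so the genotypes overlapped, with a log2 difference of 0.12 (SE 0.10). The middle probe set read 5.24, 4.90 and 4.92 against 5.35, 5.53 and 5.49, a difference of 0.44 (SE 0.12). The dimmest read 4.69, 4.42 and 4.02 against 4.95, 4.96 and 4.96, a difference of 0.58 (SE 0.16). The mutant libraries were above all wild types on the middle and dimmest probe sets and not on the brightest. Zfp738 was singled out for its difference in these same arrays, so the values are a description with no test. Without the library labelled mutant 1 the 3 differences were 0.037, 0.49 and 0.58, from the brightest to the dimmest. In wild type 3 the dimmest probe set read 4.02, and without that array its difference was 0.40.

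**Figure D2:**
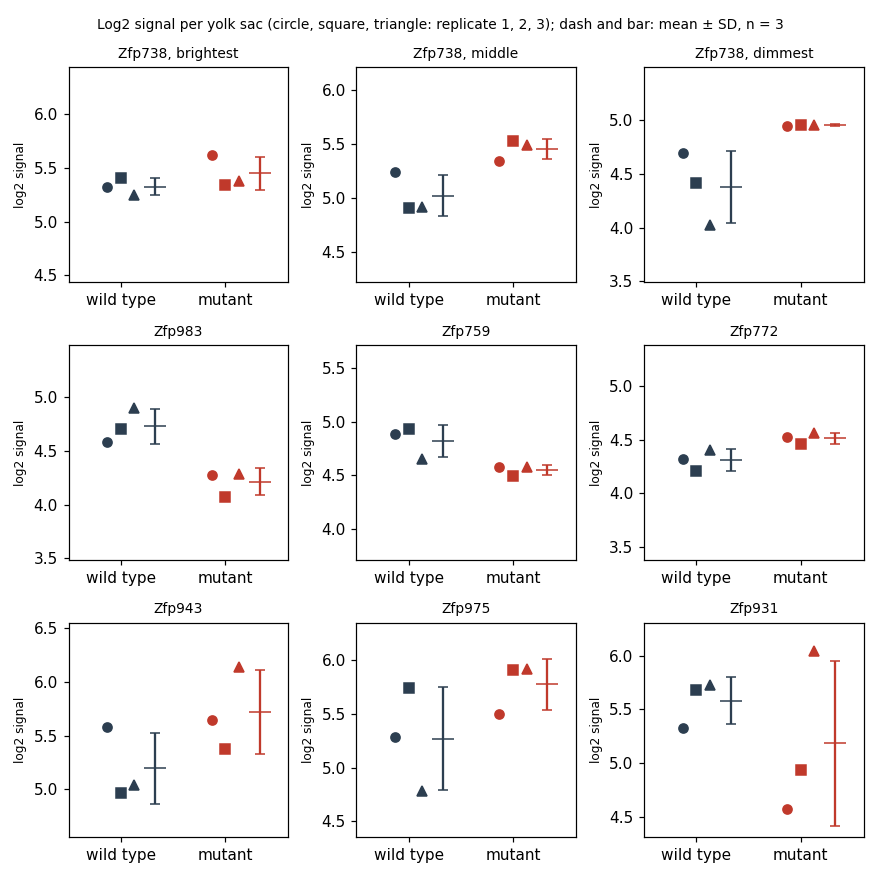
Log2 signal in each yolk sac for the 3 probe sets of Zfp738 and for 6 other genes, with replicate 1, 2 and 3 as circle, square and triangle, and mean ± SD (n = 3) beside them. Every panel spans 2 log2 units. The genotypes are separate for the middle and dimmest Zfp738 probe sets and for Zfp983, Zfp759 and Zfp772, and overlap in the other panels.

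Zfp738 lies in a run of 5 of these genes on chromosome 13, with Zfp708, Zfp759, Zfp953 and Zfp748. A run here means that at most 20 other protein-coding genes lie between neighbours. The upstream sequences of all 5 hold the word TGGGAANTGTAGTC (N stands for any base). It is the longest word with 1 free letter that a search of these sequences found in all 5, and it is printed in capitals below. RefSeq promoters (GRCm38.p6, 250 bases before to 50 after the start) listed 71 of the 81 genes, in 87 windows. The word, searched on both strands, occurred in 6 of these windows (6.90%), in 8.37% of windows of lower-numbered Zfp genes and in 0.353% of 32851 windows of all genes. The remaining window with it belongs to Zfp879 on chromosome 11. The 250 bases before the start of Zfp738 and Zfp759, 64.3% identical over 280 aligned columns, follow with shorter stretches of the other 3 genes.
Zfp738, chr13:67683513-67683762, minus strand: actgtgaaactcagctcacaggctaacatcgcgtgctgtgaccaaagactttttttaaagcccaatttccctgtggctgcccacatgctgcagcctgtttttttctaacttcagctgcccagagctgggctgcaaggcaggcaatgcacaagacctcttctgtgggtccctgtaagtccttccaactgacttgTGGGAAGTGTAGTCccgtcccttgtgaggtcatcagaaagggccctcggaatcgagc
Zfp759, chr13:67127978-67128227, plus strand: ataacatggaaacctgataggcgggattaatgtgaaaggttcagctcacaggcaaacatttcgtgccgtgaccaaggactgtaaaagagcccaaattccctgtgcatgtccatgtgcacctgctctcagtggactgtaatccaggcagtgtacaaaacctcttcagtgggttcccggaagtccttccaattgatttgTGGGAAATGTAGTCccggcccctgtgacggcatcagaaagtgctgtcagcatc
Zfp953, chr13:67360609-67360668, minus strand: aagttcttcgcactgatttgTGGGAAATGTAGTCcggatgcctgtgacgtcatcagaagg
Zfp708, chr13:67081559-67081618, minus strand: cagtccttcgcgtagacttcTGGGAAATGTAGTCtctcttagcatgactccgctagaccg
Zfp748, chr13:67553153-67553212, minus strand: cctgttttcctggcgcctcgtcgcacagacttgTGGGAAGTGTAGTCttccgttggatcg

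The 5 genes of this run had differences of both signs. Zfp738 (0.12 on its brightest probe set), Zfp748 (0.17, SE 0.096) and Zfp708 (0.019) had higher means in the mutants, and Zfp759 (−0.27) and Zfp953 (−0.14, SE 0.092) had lower ones. Zfp748 read 5.41, 5.25 and 5.37 in the wild types and 5.37, 5.61 and 5.55 in the libraries labelled mutant, where the library labelled mutant 1 lay among the wild types. Zfp738 and Zfp759, with 64.3% identity upstream of their starts, thus had mean differences of opposite sign on the probe sets used here. So did Zfp738 and Zfp953, the most alike pair of the run upstream, at 64.8% identity. The Zfp738 and Zfp953 values each overlapped between the genotypes. Whether probes of one gene of the cluster also bind transcripts of another was not tested.

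Across all chromosomes, 54 of the 81 genes lay in 15 such runs and 27 did not. In runs 28 of 54 were higher in the mutants, with a median difference of 0.015, and outside runs 13 of 27, with a median of −0.014. The largest run held 9 genes on chromosome 17: Zfp948, Zfp983, Zfp760, Zfp820, Zfp942, Zfp943, Zfp944, Zfp946 and Zfp945. Of these, Zfp948 (0.10, SE 0.10) and Zfp943 had higher means in the mutants and 7 had lower ones, with a median of −0.028. Zfp943 read 5.58, 4.96 and 5.04 in the wild types and 5.64, 5.37 and 6.14 in the libraries labelled mutant. Its difference of 0.52 (SE 0.23, limma unadjusted p = 0.0506) came with overlapping genotypes, as wild type 1 lay above mutant 2, and it was 0.31 without mutant 3. Zfp944 had a lower mean in the mutants, with 5.05, 5.12 and 5.59 against 5.37, 5.77 and 5.50 in the wild types (−0.29, SE 0.17), with mutant 3 among the wild types. That difference was −0.46 without mutant 3, −0.18 without wild type 2 and −0.19 without the library labelled mutant 1. A second chromosome 17 run, of Zfp871, Zfp799, Zfp870, Zfp952 and Zfp763, ran from −0.17 to 0.078.

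On chromosome 7, the chromosome with most of these genes, 13 of 19 had higher means in the mutants, with a median of 0.057. In the run of Zfp939, Zfp788, Zfp975, Zfp715 and Zfp719 all 5 had higher means, from 0.019 to 0.51, and none had separate genotypes. Zfp975 led it at 0.51 (SE 0.24, limma unadjusted p = 0.0654), with 5.28, 5.74 and 4.78 in the wild types and 5.50, 5.90 and 5.92 in the libraries labelled mutant. The wild types alone spanned 0.96, the widest of any of the 81 genes, and wild type 2 lay above the library labelled mutant 1. Without wild type 3 the difference was 0.26. Zfp954 was the lowest on this chromosome, at −0.077 (SE 0.10).

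The 11 genes of chromosome 8 all differed by less than 0.25, from −0.092 (Zfp869) to 0.15 (Zfp821), with a median of −0.012. Zfp869 read 6.76, 6.32 and 6.50 in the wild types and 6.48, 6.32 and 6.51 in the libraries labelled mutant, so only wild type 1 stood away. On chromosome 10 the run of Zfp781, Zfp873 and Zfp938 was led by Zfp873, at 5.52, 5.69 and 5.37 against 5.44, 6.04 and 5.97 (0.29, SE 0.17). Mutants 2 and 3 lay above all wild types there, and the library labelled mutant 1 lay among the wild types. The Zfp873 difference was 0.48 without that library and 0.18 without mutant 2. On chromosome 4 Zfp933 was higher in the mutants by 0.24 (SE 0.13) and its neighbour Zfp991 lower by a log2 difference of −0.094 (SE 0.11). Zfp949, on chromosome 9, read 5.28, 5.33 and 5.44 against 5.17, 4.92 and 5.38 (−0.19, SE 0.12), with mutant 3 among the wild types. The chromosome 6 genes ran from −0.11 (Zfp777) to 0.059 (Zfp775), and the chromosome 11 genes from −0.018 (Zfp830) to 0.20 (Zfp879).

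Chromosome 2 held the gene with the widest spread. Zfp931 read 5.33, 5.69 and 5.73 in the wild types, and 4.57, 4.93 and 6.05 in the libraries labelled mutant 1 to 3. Mutant 3 was the highest of the 6 arrays and the library labelled mutant 1 the lowest. The pooled SD of 0.57 was the largest of the 81 genes, and the log2 difference was −0.40 (SE 0.34, limma unadjusted p = 0.282). It was −0.83 without mutant 3 and −0.090 without the library labelled mutant 1. Its neighbour Zfp971 read 8.78, 8.77 and 8.47 against 8.37, 8.55 and 8.93 (−0.053, SE 0.16), and mutant 3 was again the highest array.

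Zfp931 and Zfp971 shared an upstream stretch that also occurred in genes of other chromosomes. CCAATCAG, an extended CCAAT box, was found on either strand in 24.1% of the windows, in 7.95% of lower-numbered Zfp windows and in 4.10% of all windows. GAGTGACA, or its reverse complement TGTCACTC, was found in 23.0%, 4.18% and 1.61%. These words were picked after scanning all words of 8 letters in the windows of these genes, so the shares are a description. In 5 genes TGTCACTC began 20 bases before CCAATCAG, as the following stretches show, with both words in capitals. This spacing occurred in 8.05% of the windows of the zinc finger genes and in 0.155% of all windows.
Zfp971, chr2:178023171-178023230, plus strand: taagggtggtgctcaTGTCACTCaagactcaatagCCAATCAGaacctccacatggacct
Zfp931, chr2:178078509-178078568, minus strand: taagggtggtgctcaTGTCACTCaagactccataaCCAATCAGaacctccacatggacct
Zfp958, chr8:4613070-4613129, plus strand: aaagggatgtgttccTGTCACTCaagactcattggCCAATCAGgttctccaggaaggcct
Zfp866, chr8:69774949-69775008, minus strand: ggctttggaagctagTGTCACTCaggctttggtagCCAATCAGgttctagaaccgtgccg
Zfp938, chr10:82241321-82241380, minus strand: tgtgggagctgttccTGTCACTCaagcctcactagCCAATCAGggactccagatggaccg

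The 5 genes with this spacing differed between the genotypes by −0.40 for Zfp931, −0.053 for Zfp971, −0.078 for Zfp958, −0.072 for Zfp866 and −0.059 for Zfp938, and the genotypes overlapped for each. The 16 genes with CCAATCAG had a median difference of 0.030, and the 55 listed genes without it −0.012. The 16 with GAGTGACA had a median of −0.056, against 0.024 without. The CCAAT letters alone were in 62.1% of the windows, against 38.9% for lower-numbered Zfp genes and 37.4% for all. TATAAA was in 8.05%, 7.95% and 13.6%, and the GC box GGGCGG in 40.2%, 46.4% and 35.7%. The median number of CG pairs per window was 10, between 7 for all windows and 16 for the lower-numbered genes.

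Genes with known roles were compared as well. Zfp809, which silences murine leukaemia viruses through Trim28, read 8.12, 8.23 and 8.13 in the wild types and 8.29, 8.37 and 8.07 in the libraries labelled mutant, a difference of 0.081 (SE 0.10). Its neighbour Zfp810 differed by 0.22 (SE 0.10), with 5.50, 5.68 and 5.54 against 5.76, 5.96 and 5.65. Zfp706 read between 9.93 and 10.09 on all 6 arrays (−0.016). Zfp746 differed by −0.040 and Zfp750 by 0.079. Zfp711, on the X chromosome, read 7.15 to 7.21 in the wild types, and 7.18, 7.30 and 7.82 in the libraries labelled mutant 1 to 3 (0.25, SE 0.16). Mutant 3 alone stood away from the others there, and without it the difference was 0.058. Xist was high in mutant 3, but also in wild type 1 and the library labelled mutant 1, where Zfp711 read 7.21 and 7.18. Zfp871 and Zfp948, bright genes of the chromosome 17 runs, differed by 0.078 and 0.10.

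For these genes the highest signal fell most often on wild type 2 and mutant 3. Wild type 2 held the highest signal of 22 of the 81 genes (27.2%), against 12.3% of all tested probe sets and 11.8% of lower-numbered Zfp genes. Mutant 3 held the highest of 24 (29.6%), against 25.2% and 28.7%. Either of these 2 arrays was highest for 46 genes (56.8%), against 37.5% of all tested probe sets and 40.5% of lower-numbered Zfp genes. The 2 arrays were picked after these values were seen, so the combined share is a description. After quantile normalization the count was 39 (48.1%), against 30.4% of all tested probe sets and 33.8% of lower-numbered Zfp genes. Wild type 2 was highest for 8 of the 15 chromosome 17 genes, such as Zfp944 and Zfp763, and for 14 of the other 66. Zfp763 read 5.27, 5.86 and 5.63 in the wild types and 5.04, 5.51 and 5.71 in the libraries labelled mutant. The 2 arrays belong to different genotypes.

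**Figure D3:**
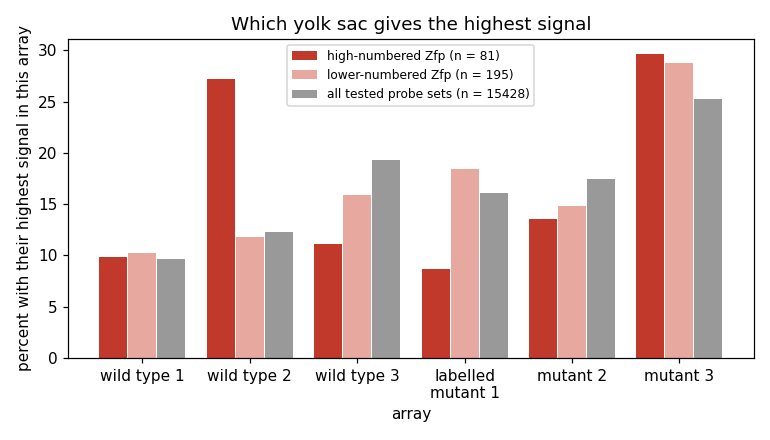
Percent of the 81 genes, of the lower-numbered Zfp genes and of all tested probe sets whose highest signal came from each yolk sac. Wild type 2 was highest for 27.2% of the 81 genes and 12.3% of all tested probe sets, and mutant 3 for 29.6% and 25.2%.

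Markers of other cell types also differed between arrays. The mean log2 signal of the 7 endothelial markers was 8.07 in wild type 2, against 7.73 and 7.76 in the other wild types, and 8.37 in mutant 3, the highest of the 6 arrays, where the libraries labelled mutant 1 and 2 were at 7.96 and 8.14. Wild type 2 and mutant 3 were the highest 2 arrays for 3 of the 7, against 13.7% of all tested probe sets and 21.0% of the 81 genes. The same held for 2 of 6 neural markers of the embryo proper, 1 of 6 mesenchyme markers and 1 of 6 trophoblast and decidua markers. It also held for 1 of 7 erythroid markers and 0 of 9 visceral endoderm markers. Of 10 trophoblast and decidua markers, 6 were on the array and 3 reached the signal limit, while Tpbpa, Psg17 and Ctsq read 1.88 to 2.58 on all arrays. The mean log2 signal of the 6 was 4.90 in wild type 2 and 4.68 in mutant 2, against 3.51 to 3.92 elsewhere, mutant 3 included. The log2 of their summed signal was 9.22 to 9.59 in wild type 2, mutant 2 and mutant 3, against 7.54 to 7.69 in the other arrays. In mutant 3 that sum rested on Plac1, at 9.10, which read 8.64 in wild type 2 and 7.19 to 7.39 elsewhere. Prl8a2 and Prl4a1 read 3.91 and 4.12 in mutant 3, against 7.44 and 7.13 in wild type 2. The mean log2 signal of the 6 mesenchyme markers was 9.92 in wild type 2 and 9.76 in mutant 2, against 9.07 to 9.25 elsewhere, mutant 3 included. For 6 neural markers of the embryo proper it ran from 4.78 to 4.95, with wild type 2 at 4.81 and mutant 3 at 4.95. The part of these tissues in the array pattern was not tested.

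**Figure D4:**
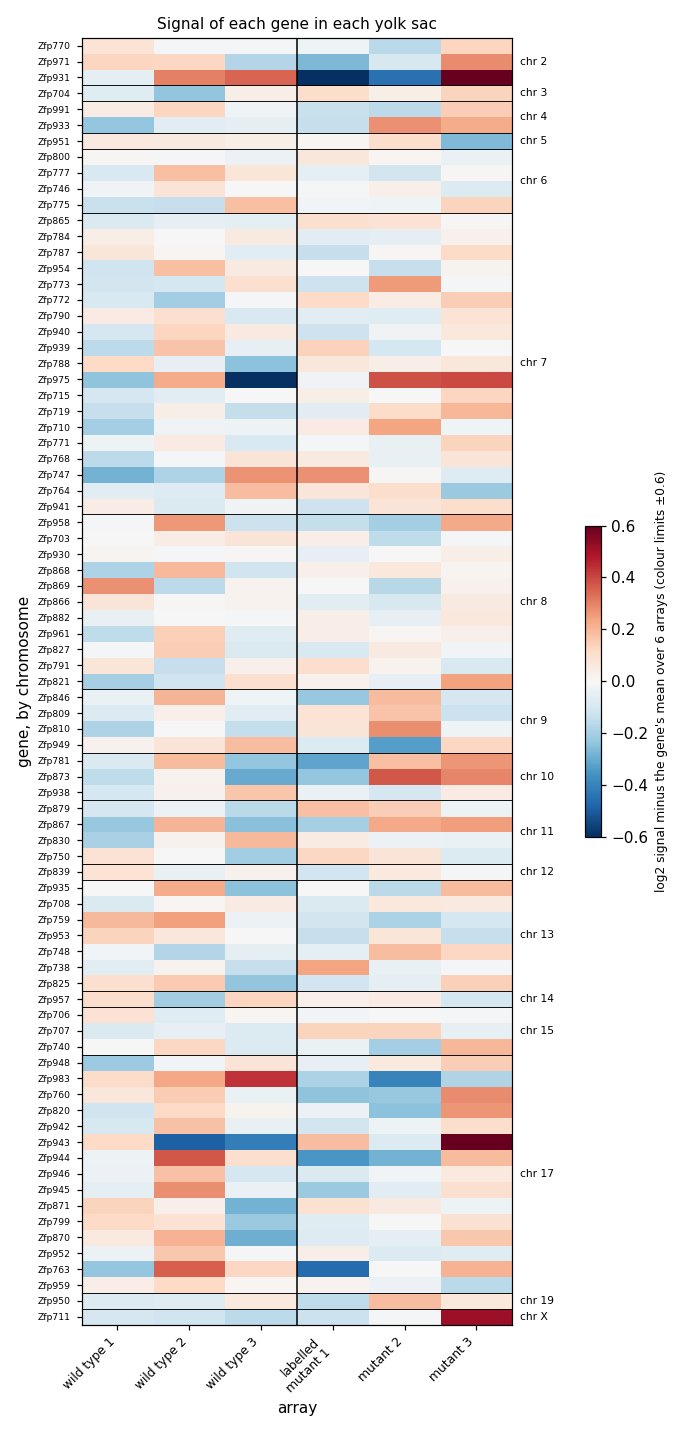
Log2 signal of each of the 81 genes on each array, minus the gene's mean over the 6 arrays, ordered by chromosome. Red is above and blue below the mean, with colour limits at ± 0.6. The vertical line divides wild types from mutants, and the columns of wild type 2 and mutant 3 hold the highest value of 46 genes.

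The cofactors that KRAB proteins work through had a median difference near 0. Of 40 cofactors and heterochromatin factors listed, 35 were tested; 14 (40%) had higher means in the mutants, against 53.0% of all tested probe sets, and the median was −0.017. None of the 35 reached an unadjusted limma p under 0.05, against 3.51%. The genotypes were separate for 4 (11.4%), against 8.52%: Atf7ip, Mta1 and Rcor1 (0.10, SE 0.075) were higher in every library labelled mutant and Atf7ip2 (−0.18, SE 0.10) lower. Trim28 read 10.06, 10.21 and 10.10 in the wild types and 10.05, 9.98 and 10.08 in the libraries labelled mutant (−0.086, SE 0.082). Setdb1 read 8.29, 8.08 and 8.02 against 8.14, 7.80 and 8.15 (−0.098, SE 0.12). The lowest unadjusted p belonged to Atf7ip, the partner that stabilises Setdb1, at a difference of 0.18 (SE 0.081, limma unadjusted p = 0.0542, adjusted p = 0.999). Its values of 8.48, 8.41 and 8.36 lay below all mutant libraries, at 8.53, 8.63 and 8.64. Mta1, a subunit of the NuRD deacetylase complex, followed at 0.17 (SE 0.075), and the DNA methyltransferase Dnmt3a was lower, at −0.31 (SE 0.17), with overlapping genotypes.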

How the data were processed

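Per the submitters' processing notes the values were made with MAS5; the deposited table gives the authors' log2 signals for 35557 probe sets. The log2 scale was read from the values (0.66 to 13.68). Nothing used here says how the arrays were normalized, and none was added. Gene names came from GEO's annotation of the platform (21789 with 1 symbol, 1621 with several, 12147 with none), and chromosomes and gene order came from RefSeq genes of GRCm38.p6. All 15428 single-symbol probe sets at or above 4.29, the 30th percentile of probe sets with a symbol, entered 1 unblocked model of genotype (limma 3.58.1, R 4.3.3; lmFit, then eBayes). P-values were adjusted over all of them by Benjamini-Hochberg. Single values were tested with an exact two-sided permutation test over 20 assignments of labels. The replicates are separate embryos. The fit was tested on simulated data. Probe set signals do not give amounts of RNA that can be compared between genes.

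The zinc finger genes and all lists were chosen with earlier results of these data known. Named genes were Zfp738, those at an unadjusted p under 0.05, those with separate genotypes, the 5 brightest, those nearest the signal limit, the extremes on chromosomes with 4 or more of these genes and the 3 widest in the wild types, plus Trim28, Setdb1 and the cofactors with the lowest p. Zfp711, Zfp746 and Zfp750 were named for their roles, and the other genes as neighbours in a run or carriers of a promoter word, or after their values were seen (Zfp931, Zfp944, Zfp873, Zfp933, Zfp991). The promoter words were chosen after the sequences were seen. Protein features planned for these genes were not run, since no protein table was used here. Alternatives changed the normalization, signal limit, probe set rule, variance model, test, covariates and arrays used; their effects are described in the closing section.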

Additional observations from a re-analysis of the deposited data

How the results depend on the processing

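No gene of the 81 reached an adjusted p under 0.05 under any alternative. The count at an unadjusted p under 0.05, 3 in the full fit, was 0 with the signal limit at the median of probe sets (41 genes left; 3.55% of all tested probe sets passed, against 3.51% in the full fit), 5 when a gene's probe sets were averaged (3.45%), 7 with array weights (6.62%), 6 with the Xist signal as a covariate (4.32%) and 7 when wild type 2 and the first mutant library were both left out (7.33%), an alternative chosen with earlier results known. Leaving out 1 array gave 2 to 9 (2.42% to 8.13%), the highest without mutant 3. The count with separate genotypes, 7, became 3 with the higher limit (8.63% of all tested probe sets), 12 to 21 without 1 array (14.3% to 27.1%) and 32 without both (36.0%), since fewer arrays separate more easily. The count of higher means, 41, became 20 of 41 genes with the higher limit, where 51.0% of all tested probe sets were higher. It became 37 to 49 without 1 array (50.2% to 56.5%) and 54 without both (52.55%). The median difference of 0.011 ran from −0.0053 to 0.033 without 1 array and was 0.066 without both. It was −0.011 with the higher limit, so its sign is not settled. Replicate numbers were not taken as pairs. Deviations of same-numbered arrays correlated at 0.46, 0.14 and −0.11, and those of differently numbered arrays at −0.46 to 0.25. So few correlations cannot settle whether the numbers pair the samples. With the number as a replicate block 6 genes reached an unadjusted p under 0.05, where 4.54% of all tested probe sets did.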

Other observations

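A further 30 probe sets list a gene of the 700 to 999 range together with 1 or more other genes, and 20 names in that range occur only on such shared probe sets. They could not be given to a single gene and are not among the 81. Of these, 29 reached the signal limit, 14 had higher means in the libraries labelled mutant, the median log2 difference was −0.00076 and the range −0.37 to 0.19. The genotypes were separate for 1, which was lower in the mutants. The probe sets that list Zfp983 beside Gm10509 differed by −0.37 and −0.36, with overlapping genotypes, and 1 of them also lists Zfp51.

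Several probe sets sit oddly in the array's numbering. The brightest probe set of Zfp706 and that of Zfp825 have identifiers among neighbours of chromosome 1, while the genes lie on chromosomes 15 and 13. The second probe set of Zfp706 differed by −0.11 against −0.016 for the brightest, and that of Zfp825 by 0.034 against −0.014. Zfp788 had 2 probe sets with identical values. The one used here has an identifier among neighbours of chromosome 5, while the gene lies on chromosome 7.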
